A study of Homo sapiens with 6 samples.

Results

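The Fanconi, homologous recombination and checkpoint genes described here are 51 genes taken by symbol from a fixed list, of 19779 genes with a value in every library. The list also holds the partners of these genes in single-strand break repair, end joining and mismatch repair. RNA was sequenced from SET-2, an established line of leukemia blasts labelled as secondary acute myeloid leukemia, and from 1 derivative of it, OTX P/R, described as persister and resistant to OTX. The series title speaks of BET inhibitors, drugs that block bromodomain readers of acetylated histones, and OTX is taken here to be one. Both lines were grown without drug in RPMI1640 medium with 20% fetal bovine serum and harvested in exponential phase, with 3 libraries per line that the design text calls biologic replicates. Only 1 derivative is named, so resistance and any other difference that arose between the 2 lines cannot be told apart. The p-values measure the spread between these cultures.

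These genes guard DNA that is being copied. The Fanconi core complex attaches ubiquitin to the FANCD2-FANCI clamp at crosslinked DNA, and the BRCA proteins and their partners then help to copy the missing stretch from the sister chromatid. ATM and ATR, through CHEK2 and CHEK1, hold the cell cycle while repair runs, and many of the genes are transcribed most in S phase and G2. Leukemia cells that divide under replication stress rely on these pathways.

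Each value is a StringTie abundance per gene, which is per length of transcript, after the authors' quantile normalization. A value therefore reflects how a gene ranks in its library, and the sequencing depth is unknown. The test was limma on log2(value + 1) for genes averaging 1 or more, and a gene passed at a Benjamini-Hochberg adjusted p under 0.05 over all 10741 genes tested. Of the 51 genes 49 were tested. MSH3, which helps recognise larger loops in mismatch repair, lay just under the minimum, at 0.791 ± 0.0447 in parental and 0.951 ± 0.0859 in OTX P/R cells (SD, n = 3 per group). MDC1, the reader of phosphorylated histone H2AX, is listed at 0 in all 6 libraries. Whether its RNA was absent or its reads were not assigned to this gene was not tested. RAD51B and BRIP1 lay just above the minimum, with means over the libraries of 1.25 and 1.21.

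Most of these genes did not pass the test between the lines, and those that did were spread over several roles. Of the 49 tested genes 4 rose in OTX P/R cells (RNF168, XRCC2, RAD54L and XRCC3), 6 fell (RAD50, BRCA1, RAD51B, FANCL, LIG3 and XRCC1) and 39 did not pass. That is 20.4% called, where 36.1% of all tested genes were called, 18.6% higher and 17.5% lower. On the log2(value + 1) scale XRCC2, RNF168, RAD50 and BRCA1 passed with a difference of 1.5-fold or more, 4 of the 49 (8.16%), against 14.6% of all tested genes. That count rests on the pseudocount: RAD51B joined the 4 with a pseudocount of 0.1, and none of the 49 reached that size with 5, although 7.52% of all tested genes did. The median log2 fold change was -0.03 for the 49 genes and 0.02 for all tested genes, and the median of its size was 0.12 and 0.21. The groups of libraries did not overlap for 7 genes that were higher and 12 that were lower in the derivative, 38.8% of the 49. Over all tested genes the share was 51.6%, with 26.8% higher and 24.9% lower. The 49 genes were chosen with results of these data known, so the shares are set side by side with no test between them.

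**Figure D1:**
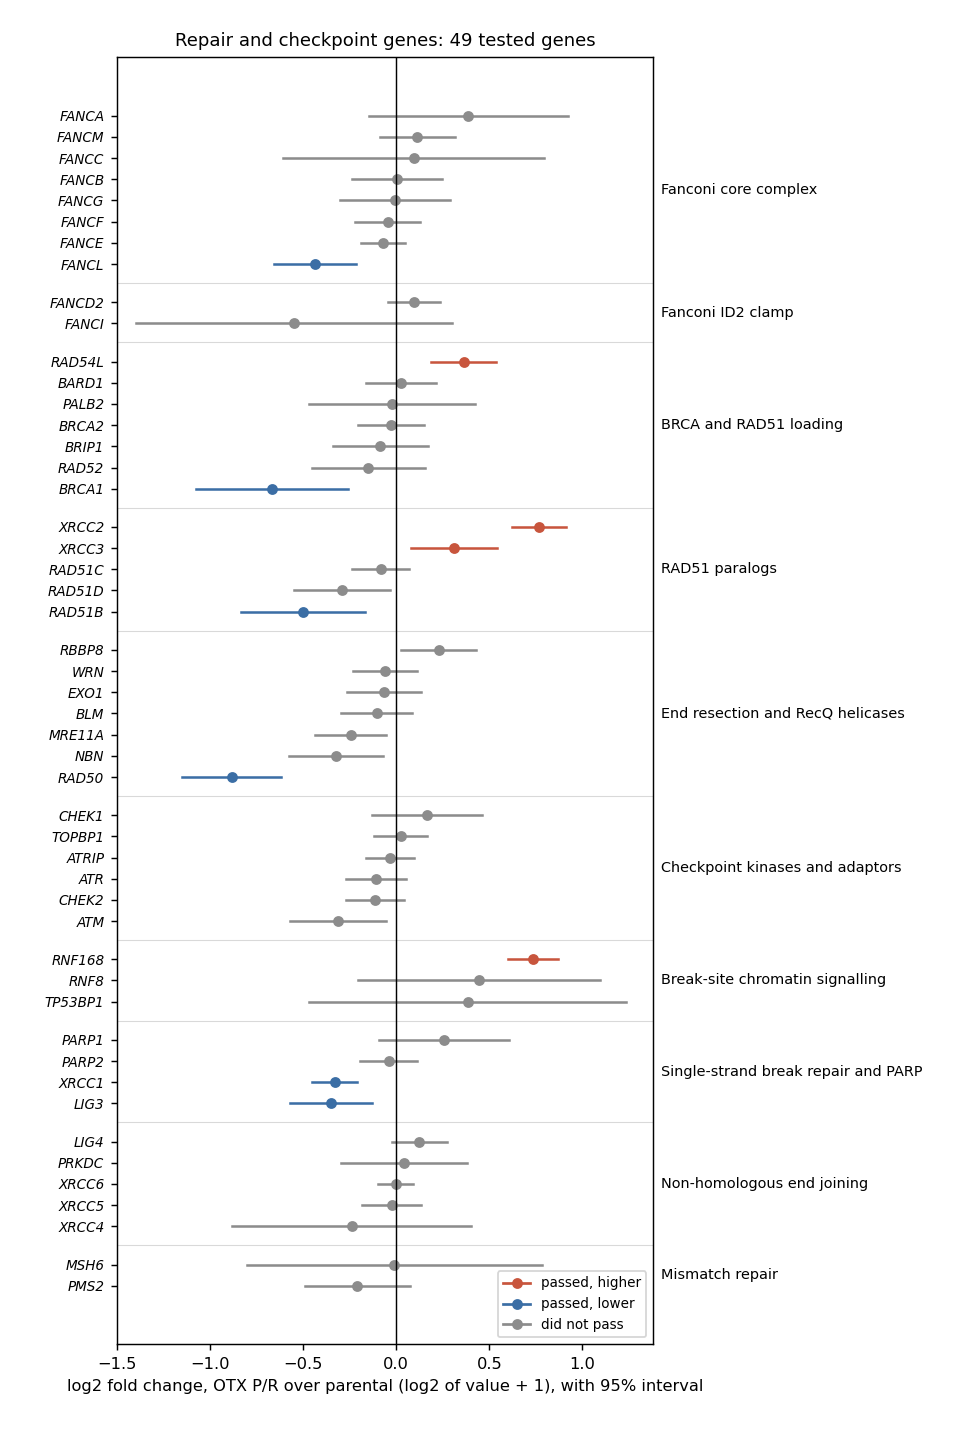
Log2 fold change of the 49 tested repair and checkpoint genes (x axis, OTX P/R over parental, on the log2(value + 1) scale) with its 95% limma interval, grouped by role. Red points passed higher, blue points passed lower and grey points did not pass; the values run from -0.88 for RAD50 to 0.77 for XRCC2.

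The promoters of the genes with the 2 largest rises and of the gene with the largest fall are shown, so that the letters of well-known binding motifs can be seen beside the change. Each is the 250 bases before and 50 bases after the start of the gene, 5′ to 3′ on the gene's strand, from RefSeq on GRCh38.p14. Capitals mark exact matches on either strand to an E2F motif (TTTGGCGC, TTTCGCGC, TTTCCCGC or TTTGCCGC), to the E-box CACGTG or to CCAAT. None of these motifs contains another, and a match is a description of the sequence, not a bound site.
XRCC2 (chr7:152676092-152676391, minus strand): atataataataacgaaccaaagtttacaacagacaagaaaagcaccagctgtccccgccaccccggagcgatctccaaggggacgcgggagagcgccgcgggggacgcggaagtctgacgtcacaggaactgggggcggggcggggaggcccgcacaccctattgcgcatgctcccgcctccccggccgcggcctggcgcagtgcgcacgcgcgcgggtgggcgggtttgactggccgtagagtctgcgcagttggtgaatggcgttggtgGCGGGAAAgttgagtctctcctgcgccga
RNF168 (chr3:196503719-196504018, minus strand): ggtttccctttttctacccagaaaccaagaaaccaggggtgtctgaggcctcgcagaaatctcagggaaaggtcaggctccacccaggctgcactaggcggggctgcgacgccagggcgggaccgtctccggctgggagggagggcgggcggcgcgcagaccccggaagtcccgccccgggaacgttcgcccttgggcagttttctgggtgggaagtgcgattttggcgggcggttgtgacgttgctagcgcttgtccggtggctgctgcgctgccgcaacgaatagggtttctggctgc
RAD50 (chr5:132556727-132557026, plus strand): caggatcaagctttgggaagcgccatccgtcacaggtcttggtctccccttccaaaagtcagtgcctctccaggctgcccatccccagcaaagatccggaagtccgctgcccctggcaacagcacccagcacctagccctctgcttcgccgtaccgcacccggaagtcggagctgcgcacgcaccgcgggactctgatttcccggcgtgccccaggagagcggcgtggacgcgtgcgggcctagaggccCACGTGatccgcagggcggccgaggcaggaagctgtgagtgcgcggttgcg
XRCC2 held 1 E2F match just after its start, RAD50 held 1 E-box across its start, and RNF168 held none of the motifs.

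Promoters were matched for 46 of the 51 genes, using the first listed start of each gene. An E2F match was present in 10 of the 46 (21.7%), in 5.61% of the 8145 tested genes with a promoter and in 3.33% of all 27305 genes with one. The 10 are FANCA, FANCC, FANCD2, XRCC2, EXO1, TOPBP1, XRCC6, MSH3, MSH6 and PMS2, and XRCC2 is the one of them that passed the test. The E-box was found in 4 of the 46 promoters (8.70%, against 10.7% of tested genes), those of FANCC, BRCA2, RAD50 and LIG3. CCAAT was found in 21 (45.7%, against 37.5% of tested genes). The E2F factors drive genes of S phase entry and the pocket proteins restrain them, and 11 of these genes were tested. None passed limma's test, where 36.1% of all tested genes did. An unadjusted p under 0.05 was found for 1 of them and for 4995 of all 10741 tested genes. Their log2 fold changes ran from -0.32 to 0.71, with 8 above 0 and 3 below. The groups of libraries did not overlap for 4 of the 11 (36.4%), all higher in OTX P/R cells. Over all tested genes that share was 26.8% higher and 24.9% lower. E2F1 stood at 21.1 ± 0.888 in parental and 22.4 ± 0.442 in OTX P/R cells and E2F4 at 62.7 ± 3.40 and 65.3 ± 9.65 (SD, n = 3).

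Of the 8 Fanconi core complex genes 1 fell and 7 did not pass. FANCL, the ubiquitin ligase that modifies FANCD2, stood at 9.26, 10.8 and 10.4 in the parental libraries and at 7.67, 7.65 and 6.47 in the OTX P/R libraries. Every OTX P/R library was below every parental one. Its log2 fold change was -0.44 ± 0.09 (SE; limma adjusted p = 0.0122). FANCE, which binds FANCD2, also had groups that did not overlap, but its difference was small, 10.9 ± 0.0592 against 10.3 ± 0.290 (SD, n = 3), and it missed the threshold (-0.07 on the log2 scale, interval -0.19 to 0.05). FANCB, FANCF, FANCG and FANCM, the translocase that anchors the complex on chromatin, had log2 fold changes from -0.05 to 0.11 and overlapping groups.

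In the ID2 clamp FANCD2 was even across libraries and FANCI was not. FANCD2 stood at 14.0, 13.3 and 12.7 in parental and 14.5, 13.8 and 14.6 in OTX P/R libraries, and its groups overlapped (interval -0.04 to 0.23). FANCI stood at 22.4, 19.1 and 14.6 in parental libraries and at 21.7, 9.09 and 9.19 in OTX P/R libraries. Library 1 of OTX P/R lay among the parental values and the other two lay below them. The log2 fold change of FANCI was -0.55 with an interval of -1.40 to 0.30 and did not pass. Without OTX P/R library 1 it was -0.94 and passed (limma adjusted p = 0.0174), and without library 2 or 3 of OTX P/R it was -0.35 and -0.36 and did not pass.

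BRCA1 fell while its partners did not pass. BRCA1, the ubiquitin ligase and recombination mediator, stood at 9.999, 6.28 and 6.52 in parental libraries and at 4.598, 4.28 and 4.07 in OTX P/R libraries. All OTX P/R libraries were lower than all parental ones, and parental library 1 was the highest. The log2 fold change was -0.67 ± 0.17 (SE; limma adjusted p = 0.0240), and the call was lost when any 1 OTX P/R library was left out (adjusted p up to 0.0719). BARD1, its obligate RING partner, was at 1.99 ± 0.145 and 2.05 ± 0.172 (SD, n = 3), so the ratio of BRCA1 to BARD1 went from 4.69, 3.41 and 3.24 in parental libraries to 2.44, 2.10 and 1.83 in OTX P/R libraries, without overlap. BRCA2, a mediator of recombination, and PALB2, which joins BRCA1 to BRCA2, had log2 fold changes of -0.03 and -0.02. BRIP1, a helicase bound by BRCA1, and RAD52, a strand annealing protein, were at -0.09 and -0.15 and did not pass.

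RAD54L, a DNA translocase that acts in strand exchange, rose. It stood at 9.20, 9.23 and 8.47 in parental libraries and at 11.3, 12.8 and 11.3 in OTX P/R libraries. The groups did not overlap, and the log2 fold change was 0.36 ± 0.07 (SE; limma adjusted p = 0.0102).

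The genes of the BCDX2 and CX3 complexes, which assist recombination, went in both directions. BCDX2 is made of RAD51B, RAD51C, RAD51D and XRCC2, and CX3 of RAD51C and XRCC3. XRCC2 went from 4.40, 4.14 and 4.33 in parental libraries to 7.66, 7.92 and 8.42 in OTX P/R libraries, a fold of 1.70 on the log2(value + 1) scale (log2 fold change 0.77 ± 0.06 SE, limma adjusted p = 0.000263). The spread within each group was small beside the difference. XRCC3 stood at 12.2, 11.5 and 9.74 in parental libraries and at 14.6, 14.5 and 13.0 in OTX P/R libraries. It passed narrowly (log2 fold change 0.31, limma adjusted p = 0.0461) and lost the call when any 1 library other than parental library 1 was left out (adjusted p up to 0.127). RAD51B went the other way, from 1.57, 2.01 and 1.34 to 0.904, 1.08 and 0.615, with a log2 fold change of -0.50 ± 0.14 (limma adjusted p = 0.0318). RAD51B is near the bottom of the tested range, it passed the minimum through its parental values, and its call was lost without parental library 1 or 2 or OTX P/R library 1 or 3 (adjusted p up to 0.0807). RAD51C and RAD51D did not pass, at -0.08 and -0.29, although the RAD51D groups did not overlap, at 2.72 ± 0.475 and 2.03 ± 0.124 (SD, n = 3). Without parental library 1 RAD51D passed (limma adjusted p = 0.0423), and without parental library 2 it was at -0.19 and did not.

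**Figure D2:**
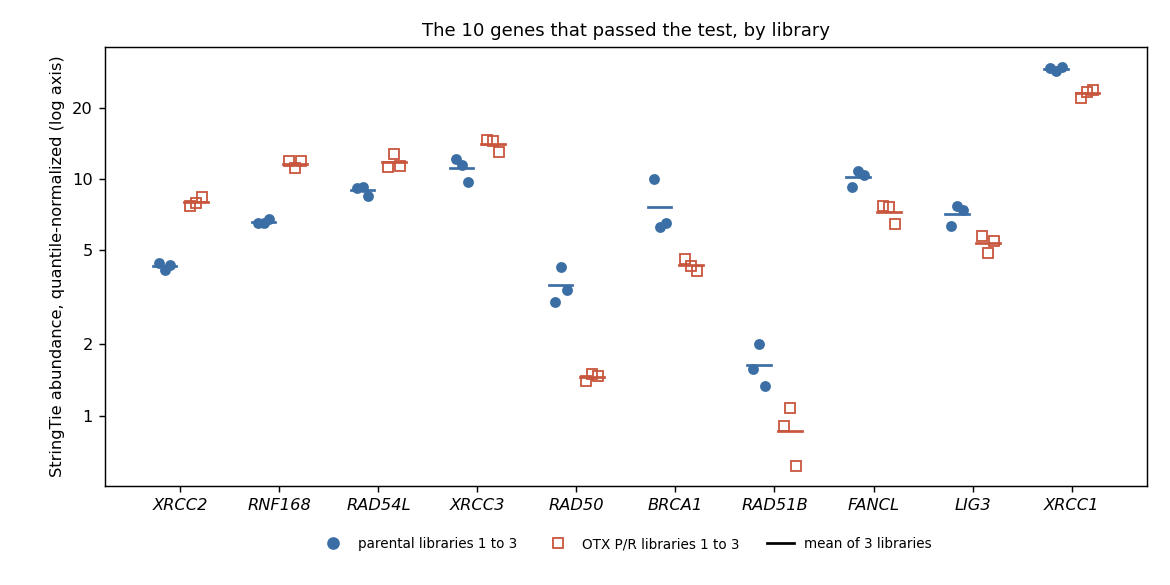
Abundance in each library (y axis, quantile-normalized StringTie abundance, log axis) of the 10 genes that passed, with parental libraries as filled circles, OTX P/R libraries as open squares and bars at the means. XRCC2, RNF168 and RAD50 have the widest gaps between groups, and XRCC3 and LIG3 have groups that lie close together.

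RAD50 had the largest fall of all 49 genes, and the other MRN genes were lower without passing. The MRN complex of MRE11A, RAD50 and NBN tethers broken ends and starts their resection. RAD50, its ATPase, went from 3.02, 4.26 and 3.41 in parental libraries to 1.41, 1.51 and 1.47 in OTX P/R libraries, a log2 fold change of -0.88 ± 0.11 (SE; limma adjusted p = 0.00164). MRE11A, the nuclease, was at 5.32 ± 0.422 and 4.33 ± 0.284 (SD, n = 3; limma adjusted p = 0.0538), and NBN, which recruits ATM, at 20.1 ± 2.58 and 15.8 ± 1.20 (limma adjusted p = 0.0537). Both had groups that did not overlap, and each passed with 1 library left out, MRE11A without parental library 1 (limma adjusted p = 0.0354) and NBN without parental library 2 (0.0443). The ratio of MRE11A to RAD50 went from 1.600, 1.29 and 1.65 to 2.88, 2.87 and 3.15, and that of NBN to RAD50 from 6.38, 4.24 and 6.75 to 10.4, 10.4 and 11.6, so RAD50 was lower relative to both partners in every OTX P/R library.

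RBBP8, also called CtIP, which works with MRN at the start of resection, lay on the other side, at 13.1 ± 0.875 and 15.6 ± 1.34 (SD, n = 3), and did not pass (log2 fold change 0.23, limma adjusted p = 0.0787; 0.0485 without OTX P/R library 2). EXO1, which resects further, and the RecQ helicases BLM and WRN had log2 fold changes of -0.06, -0.11 and -0.06 and overlapping groups.

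None of the 6 checkpoint kinase and adaptor genes passed limma's test, and 1 of them, ATM, had an unadjusted p under 0.05. Over all 10741 tested genes 36.1% passed and 4995 had an unadjusted p under 0.05. ATM, the kinase of double-strand breaks, stood at 1.81, 2.02 and 1.70 in parental libraries and at 1.17, 1.10 and 1.61 in OTX P/R libraries. The groups did not overlap, but OTX P/R library 3 was close to the parental range, and the log2 fold change of -0.31 had a limma adjusted p = 0.0637. Without that library ATM passed (-0.41, limma adjusted p = 0.0237). ATR, the kinase of stalled forks, was at 2.18 ± 0.0611 and 1.96 ± 0.126 (SD, n = 3). CHEK1, the effector of ATR and the most abundant of the 6, was at 43.6 ± 5.50 and 48.9 ± 5.73, and CHEK2, the effector of ATM, at 24.2 ± 1.28 and 22.3 ± 1.22. TOPBP1, which activates ATR, and ATRIP, which brings it to single-stranded DNA, had log2 fold changes of 0.02 and -0.03. The table lists ATRIP a second time under another gene identifier, at 6.52 ± 1.61 and 4.85 ± 0.174, and this row did not pass either (limma adjusted p = 0.129). The row with the higher mean stands for ATRIP in all counts.

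In signalling at break sites RNF168 rose. RNF168, the ubiquitin ligase that marks histone H2A so that TP53BP1 can bind, stood at 6.54, 6.50 and 6.76 in parental libraries and at 11.9, 11.1 and 11.9 in OTX P/R libraries. The libraries of each line were within a narrow range, and the log2 fold change was 0.73 ± 0.05 (SE; limma adjusted p = 0.000219), the smallest adjusted p of the 49 genes. RNF8, the ligase that acts before RNF168, stood at 9.77, 10.2 and 4.70 in parental libraries and at 10.2, 10.9 and 12.01 in OTX P/R libraries. Parental library 3 was far below the other five, and RNF8 missed the threshold (0.45 on the log2 scale, interval -0.20 to 1.09). Without that library the value was 0.13. TP53BP1, which shields ends from resection, stood at 9.63, 3.47 and 7.25 in parental and at 8.39, 6.52 and 11.3 in OTX P/R libraries, with overlapping groups and an interval of -0.47 to 1.24.

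XRCC1 and LIG3, which seal single-strand breaks together, both fell. XRCC1, the scaffold, went from 29.4, 28.7 and 29.9 to 22.0, 23.4 and 23.9, a log2 fold change of -0.33 ± 0.05 (SE; limma adjusted p = 0.00369). LIG3, the ligase it carries, went from 6.35, 7.68 and 7.37 to 5.72, 4.89 and 5.48, a log2 fold change of -0.35 ± 0.09 (limma adjusted p = 0.0259). The groups did not overlap for either gene, and their ratio overlapped between the lines, at 3.74 to 4.63 in parental and 3.85 to 4.80 in OTX P/R libraries. The LIG3 call was lost without parental library 2 or 3 or OTX P/R library 2 or 3 (adjusted p up to 0.0792) and with the replicate number as a block (limma adjusted p = 0.0803). PARP1, the main sensor of strand breaks, stood at 96.4, 66.7 and 69.0 in parental and at 93.1, 93.7 and 86.997 in OTX P/R libraries. Parental library 1 lay above all OTX P/R libraries and the other two below them, and PARP1 missed the threshold (0.25 on the log2 scale, interval -0.10 to 0.60). Without parental library 1 it was 0.42 and passed (limma adjusted p = 0.00511), and without parental library 2 it was 0.16 (limma adjusted p = 0.462). PARP2 was at -0.04.

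The 5 end joining genes did not pass limma's test, and none had an unadjusted p under 0.05. Over all 10741 tested genes 36.1% passed and 4995 had an unadjusted p under 0.05. XRCC6 and XRCC5, the Ku subunits that cap broken ends, were the most abundant of the 51 genes. XRCC6 stood at 320.9 ± 4.06 and 320.3 ± 7.65 (SD, n = 3; interval of the log2 fold change -0.10 to 0.09) and XRCC5 at 167.4 ± 12.5 and 164.4 ± 5.46 (-0.18 to 0.13). PRKDC, the kinase that Ku recruits, had a log2 fold change of 0.04 and LIG4, the ligase of end joining, 0.12. XRCC4, the scaffold of LIG4, varied by more than 2-fold between OTX P/R libraries, from 1.58 to 3.26.

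Of the mismatch repair genes MSH6 and PMS2 were tested and neither passed, where 36.1% of all tested genes did. Neither had an unadjusted p under 0.05, which 4995 of all 10741 tested genes had. MSH6, which helps recognise base mismatches, stood at 11.96, 18.9 and 8.97 in parental and at 10.2, 10.4 and 18.7 in OTX P/R libraries, so the libraries of each line differed more than the means of the lines did. PMS2, a mismatch repair endonuclease, was at 7.17 ± 0.545 and 6.10 ± 1.01 (SD, n = 3; log2 fold change -0.21), and passed without OTX P/R library 2 (limma adjusted p = 0.0484), while without OTX P/R library 1 it was at -0.13 (limma adjusted p = 0.455). PMS2, CHEK2 and FANCD2 have pseudogene copies close in sequence, and BRCA1 has a partial one, so their values are less certain if reads were divided among the copies.

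Uneven libraries were a feature of 7 of the 49 genes (14.3%), against 9.23% of all tested genes, when uneven is taken as a ratio of at least 2 between the highest and lowest library of a line or a library listed at 0. The 7 are FANCA, FANCC, FANCI, TP53BP1, RNF8, XRCC4 and MSH6, and none of them passed. FANCC, a core complex subunit, ranged from 0.792 to 2.39 over parental libraries, and FANCA, the subunit most often mutated in Fanconi anemia, from 2.33 to 4.70. The lowest parental library was library 3 for FANCA, FANCC, FANCI, RNF8, XRCC4 and MSH6 and library 2 for TP53BP1. The lowest OTX P/R library differed from gene to gene.

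**Figure D3:**
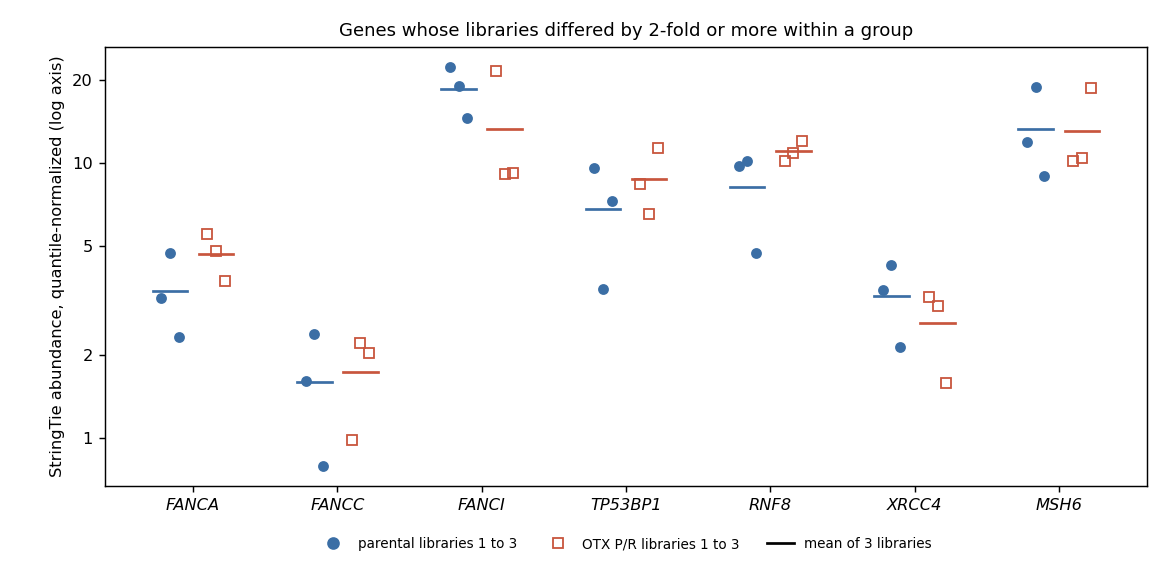
Abundance in each library (y axis, quantile-normalized StringTie abundance, log axis) of the 7 genes with a ratio of at least 2 between libraries of a line, with parental libraries as filled circles, OTX P/R libraries as open squares and bars at the means. Single libraries stand apart, such as OTX P/R library 1 for FANCI at 21.7 against 9.09 and 9.19.

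Ratios of 16 pairs of genes with partner roles were compared library by library. The groups did not overlap for 3 pairs, MRE11A to RAD50 and NBN to RAD50, which were higher in OTX P/R libraries, and BRCA1 to BARD1, which was lower. The 2 higher pairs share RAD50, so its own fall enters both and they are not separate results. For the other 13 pairs the libraries overlapped. The share without overlap among other pairs of genes was not counted. For single genes it was 51.6% of all tested. The ratio of XRCC5 to XRCC6 was 0.490 to 0.560 in parental and 0.493 to 0.531 in OTX P/R libraries. With 3 libraries against 3, an exact two-sided permutation test cannot give a p under 0.1, so the ratios are given without one.

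**Figure D4:**
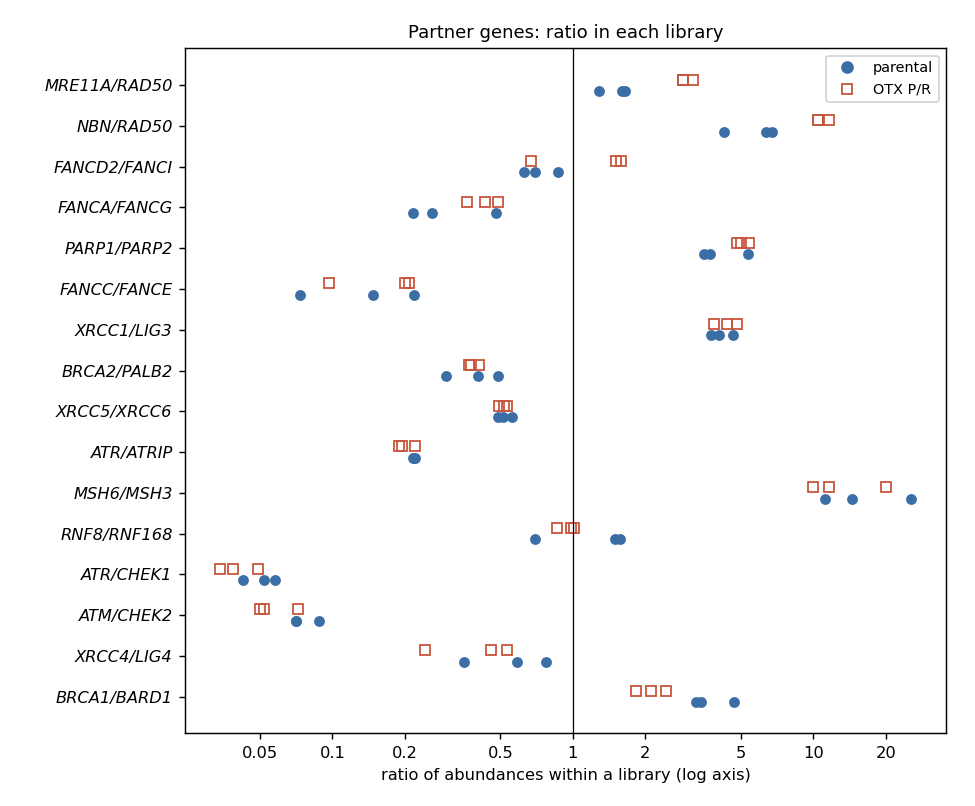
Ratio of the abundances of partner genes within each library (x axis, log axis) for 16 pairs, with parental libraries as filled circles and OTX P/R libraries as open squares. The squares lie right of all circles for the 2 pairs with RAD50 and left of them for BRCA1 to BARD1, and overlap with them elsewhere.

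Several of the genes that changed lie among neighbours that differed in the same direction. The median log2 fold change of up to 12 tested genes on each side was taken along each chromosome, with the gene itself left out, and called shifted at 0.3 or more in size. Neighbours were shifted for 5 of the 49 genes (10.2%) and for 8.57% of all tested genes with neighbours. RAD50, on chromosome 5, lies among 24 neighbours with a median of -0.56, of which 13 fell. BRCA1, on chromosome 17, has a median of -0.80 and 22 of 24 neighbours that fell. LIG3 on the same chromosome has -0.75 and 17 of 24, and RAD51D, also there, has -0.72 and 18 of 24. The promoters of LIG3 and RAD51D lie near each other, from positions 34980262 and 35119709. Their neighbours therefore overlap and do not count as separate stretches. XRCC2, on chromosome 7, has neighbours with a median of 0.73, of which 19 of 23 rose and none fell.

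Of these 5 genes, 4 passed in the direction of their neighbours and RAD51D did not pass. Among the 44 genes elsewhere 3 rose (RNF168, RAD54L and XRCC3) and 3 fell (FANCL, RAD51B and XRCC1). Over all tested genes, with or without shifted neighbours, 18.6% rose and 17.5% fell. The share that passed among all genes with shifted neighbours was not counted, so the 4 of 5 cannot be set beside it. RNF168, on chromosome 3, is the one gene outside shifted neighbours that passed with a fold of at least 1.5 on the log2(value + 1) scale (RAD51B also does with a pseudocount of 0.1), and its neighbours had a median of 0.11. BRIP1 and RAD51C are also on chromosome 17 and had neighbour medians of 0.04 and 0.06 and log2 fold changes of -0.09 and -0.08. XRCC4 is also on chromosome 5, with a neighbour median of 0.03.

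**Figure D5:**
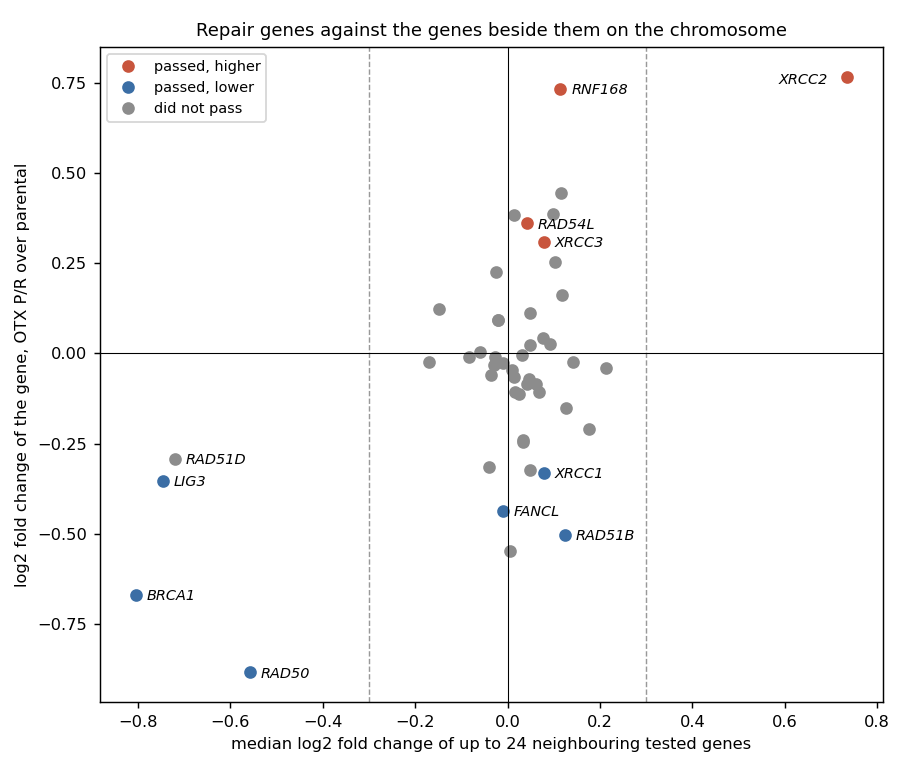
Log2 fold change of each of the 49 genes (y axis) against the median log2 fold change of its neighbouring tested genes (x axis), coloured by whether the gene passed. Dashed lines mark medians of -0.3 and 0.3; RAD50, BRCA1, LIG3 and RAD51D lie left of the lower one and XRCC2 right of the upper one.

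The other genes of these pathways moved in both directions as well. Over 5 lists of 113 further repair and checkpoint genes 109 were tested, and 15 rose, 11 fell and 83 did not pass. That is 23.9% called, against 36.1% of all tested genes. Their median log2 fold change was 0.05. Of 13 other Fanconi genes 15.4% were called. FAN1, a crosslink nuclease, rose (log2 fold change 0.22) and WDR48, the partner of the deubiquitinase USP1, fell by 0.43 on the log2 scale. Of 31 other recombination genes 4 rose and 2 fell (19.4% called). RAD51AP1, which promotes strand invasion, rose from 11.1 ± 1.33 to 17.5 ± 1.56 (SD, n = 3; log2 fold change 0.62, limma adjusted p = 0.00544), and TOP3A, the topoisomerase that works with BLM, rose by a log2 fold change of 0.52. C17orf53, later named HROB, which brings MCM8 and MCM9 to repair sites, fell by 0.72 and lies on chromosome 17 among neighbours with a median of -0.77. SFR1, a recombination cofactor, fell by 0.46.

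Of 25 other checkpoint and break signalling genes 5 rose and 4 fell (36% called, against 36.1% of all tested genes). H2AFX, the histone variant that MDC1 reads when phosphorylated, rose from 170.7 ± 6.38 to 295.6 ± 6.45 (SD, n = 3; log2 fold change 0.79, limma adjusted p = 8.15e-05). CDC25A, a phosphatase that CHEK1 restrains, rose (log2 fold change 0.51), and CDC25C fell by 0.90 and lies on chromosome 5 among neighbours with a median of -0.55. PAXIP1, an adaptor of TP53BP1 on chromosome 7, rose by a log2 fold change of 0.65 among neighbours with a median of 0.73. These neighbours overlap with those of XRCC2. BRE and UIMC1, both of the BRCA1-A complex that binds ubiquitin at breaks, fell, with log2 fold changes of -0.54 and -0.46, and the neighbours of UIMC1 had a median of -0.64. Of 24 other end joining, base excision and mismatch repair genes 4 rose and 3 fell (29.2% called). UNG, the uracil glycosylase, rose (log2 fold change 0.46), while MBD4, a mismatch glycosylase, and NHEJ1, also called XLF, fell by 0.46 and 0.33.

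Cell cycle genes were higher in part. Of 35 S phase markers 13 rose, 1 fell and 21 did not pass, and their median log2 fold change was 0.17. Among the G2/M markers 50 were tested, of which 16 rose, 3 fell and 31 did not pass, at a median of 0.11. Counted in either direction, that is 40% of the S phase and 38% of the G2/M markers called, against 36.1% of all tested genes. Most calls in both lists were higher, where over all tested genes 18.6% were called higher and 17.5% lower. The groups of libraries did not overlap for 21 S phase markers that were higher and 2 that were lower. For the G2/M markers these numbers were 21 and 6. Over all tested genes the shares were 26.8% higher and 24.9% lower. The summed value of the S phase markers was 1411 to 1446 in parental and 1635 to 1686 in OTX P/R libraries. The part of these shifts in the values of RAD54L, XRCC2 and XRCC3 was not tested.

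The megakaryoblast markers of SET-2 were present in both lines, apart from PF4, listed at 0 throughout, and of 7 tested 5 rose and 1 fell. Of the T and NK cell markers 5 of 8 were tested, of which 1 rose and 4 fell, with log2 fold changes from -2.18 to 0.34. Their list had summed values of 188.6 to 198.1 in parental and 142.2 to 152.6 in OTX P/R libraries. CD3E and CD3G were at most 0.0392 in every library, so these sums come from other markers of the list. Of 5 B cell markers 2 were tested and fell, with sums of 13.8 to 16.1 and 9.996 to 10.9, and MS4A1 was listed at 0 throughout. Of 5 monocyte markers 2 were tested and 1 fell, and of 6 fibroblast and endothelial markers 1 was tested and rose. Over all tested genes 36.1% were called. The part of these markers in the values of the repair genes was not tested.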

How the data were processed

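Trim Galore, HISAT2, StringTie and build hg19 are named in the submitters' processing notes, without versions. The authors deposited 1 StringTie signal per gene and library on a linear scale (FPKM or TPM is not given in the sources used here). Once sorted, the libraries' values of 1 or more agreed to within 0.243%, the mark of quantile normalization, and sums per library were 419375 to 419437. Of 19785 genes 6 with a missing value were left out.

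Values were transformed as log2(value + 1), which understates the change of low genes. Genes averaging 1 or more were fitted with limma 3.58.1 in R 4.3.3 (variance prior with trend, two-sided, Benjamini-Hochberg over all tested genes); a 95% interval is from the same fit. The procedure was tested on simulated data. The genes and lists were chosen with earlier results of these data known. Values in every library were given for genes that passed at 0.3 or more in size and for others picked after their values were seen, and up to 3 called genes per direction were named in each further list, except that some are not reported here. Gene order came from GENCODE v29, matched by identifier for 19528 genes. Alternatives were pseudocounts of 0.1 and 5, no filter, a minimum mean of 5, priors without trend and robust, median centring, a replicate block, each library left out, and other neighbour windows. Python 3.11.15, pandas 2.3.3, NumPy 2.4.6 and Matplotlib 3.10.9 were used.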

Additional observations from a re-analysis of the deposited data

How the results depend on the processing

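All 10 genes that passed kept their direction in the 14 alternatives (in 13 of them for RAD50 and RAD51B, which are not tested at a minimum mean of 5), and 6 of them, FANCL, RAD54L, XRCC2, RAD50, RNF168 and XRCC1, passed in all that were run. The number that passed was 8 to 11 with another pseudocount, filter, prior or centring and 7 to 13 with 1 library left out, against 10; those higher ranged from 3 to 5 and those lower from 4 to 8. XRCC3 was lost with no filter on low values (adjusted p = 0.0663), and MRE11A was gained with a prior that ignores the mean (0.0471). Over all genes the count was 3029 to 3453 with a library left out, 2790 with a minimum mean of 5 and 4836 with no filter, against 3879. Of the further repair genes 7 instead of 11 fell with a minimum mean of 5, a setting that tests fewer genes, and 7 to 10 fell with a library left out, the fewest without OTX P/R library 3. With the replicate number as a block 10 of the repair and checkpoint genes passed, 4 higher and 6 lower, with NBN gained (adjusted p = 0.0375) and LIG3 lost, and 3159 of all genes. Same-numbered libraries showed no shared deviation over all tested genes, with correlations of -0.06, -0.03 and -2.94e-04. This cannot exclude that same-numbered cultures were handled together. With a pseudocount of 5 the genes that passed at 1.5-fold or more numbered 0 against 4, and with 0.1 they numbered 5, a comparison chosen after seeing the data. A larger pseudocount shrinks the fold of low genes. Genes with shifted neighbours numbered 6 with 6 or 25 genes on each side or a threshold of 0.2, against 5. The depth is unknown, so counting error cannot be given.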

Other observations

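Nucleotide excision repair genes, whose products remove bulky lesions, mostly did not pass the test. Of 16 tested 14 did not pass, 12.5% called against 36.1% of all tested genes, and their median log2 fold change was -0.04. ERCC2, a helicase of the repair and transcription factor TFIIH, rose by a log2 fold change of 0.18 (limma adjusted p = 0.0472).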
